A study of Mus musculus with 10 samples.

Results

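Levels of 40 human genes of the hypoxia response and of glycolysis were followed across tumours that DAOY cells, a long-established line from a human medulloblastoma, formed in the flank of nude mice. The genes were chosen by name, with no measured value in the rule, but with earlier results of these data known. One set of 20 belongs to the transcriptional response to low oxygen, and the other 20 cover glucose uptake, the steps of glycolysis, and the formation and export of lactate. All 40 were found by Ensembl identifier among the 33538 genes of the count table, and all 40 were among the 16013 genes with enough counts to test. The tumours came from female mice in 3 diet groups, each sampled after 30 days of treatment. Control mice ate ordinary chow (3 libraries, one for each sample). A second group received an oil that supplied docosahexaenoic acid, called DHA oil here (3 libraries). The remaining group received fish oil (4 libraries), taken to be the arm in which DHA was combined with eicosapentaenoic acid. The labels name no genetic difference between the groups, all used the same cell line, and nude mice lack a thymus and so most mature T cells. Age and dose are not given in the labels, nor is a mouse named for each library, so the spread between libraries of a group may include technical spread.

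When oxygen is short, the enzymes that mark the alpha subunits of the hypoxia-inducible factors (HIF) for destruction lose activity, and the stabilised factors switch on target genes. Those targets include glucose transporters and almost every enzyme of glycolysis, which lets cells make ATP without respiration. Solid tumours outgrow their vessels, and carbonic anhydrase 9 (CA9) is widely used to mark their poorly oxygenated areas. Many tumours also run glycolysis to lactate when oxygen is present.

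Library totals lay between 6187116 and 10035702 counts. Levels are given as CPM, the unit of counts scaled to the effective library total. Each of the 40 genes had at least 36 counts in every library. Fish oil replicates 4 and 2 stood apart from the other libraries on the first principal component (26.4% of the variance, scores of 52.9 and 21.4 against -19.1 to 1.71), so results that rest on them are also given without them. In a bulk tumour, fewer cells that carry a transcript and less of it in each cell cannot be told apart. The symbols on the marker lists could not be matched to identifiers, so the identity of the tissue and its content of host cells were not checked.

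The hypoxia genes varied widely between tumours of one diet and moved largely together, while no gene of either set passed the test between diets. Control replicate 3, fish oil replicate 3 and fish oil replicate 2 held high levels, and control replicate 2 and DHA oil replicate 2 held low ones. The control group therefore contained one of the highest tumours and one of the lowest. In 37 of the 40 genes the 3 control libraries spanned a larger fold than the 3 diet means did, against 73.3% of all genes tested. The exceptions were BNIP3L, HK1 and LDHB.

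**Figure D1:**
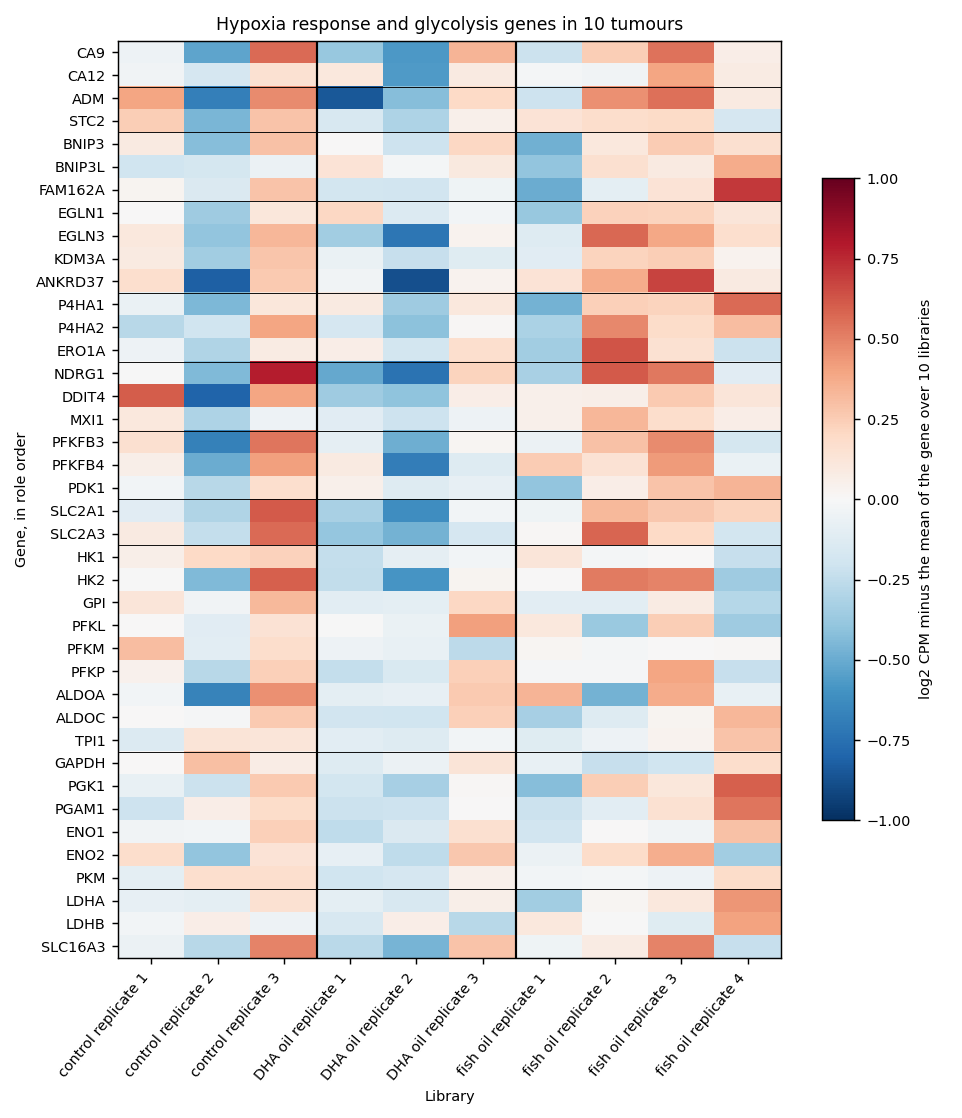
Each row is a gene, each column a library, and colour gives log2 CPM minus the mean of that gene over the 10 libraries. Thin lines part the roles and thick lines part the diets. Red columns at control replicate 3 and fish oil replicate 3 and blue columns at control replicate 2 and DHA oil replicate 2 cross most hypoxia genes. Fish oil replicate 4 is red in FAM162A, P4HA1, PGK1, PGAM1 and LDHA, among others, and blue in ENO2.

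CA9 (ENSG00000107159), which hydrates carbon dioxide at the cell surface and so helps to hold the pH inside the cell, stood at 274, 197 and 420 CPM in control replicates 1, 2 and 3. It was at 218, 191 and 358 CPM in the DHA oil libraries and at 244, 336, 413 and 298 CPM in the fish oil libraries, in replicate order. The groups overlapped fully, and the highest and lowest controls differed 2.13-fold. Group means were 297 ± 113 (SD, n = 3) in control, 256 ± 90.0 (SD, n = 3) in DHA oil and 323 ± 71.1 CPM (SD, n = 4) in fish oil. CA12, a second membrane carbonic anhydrase, ranged less, from 52.8 CPM in DHA oil replicate 2 to 103 CPM in fish oil replicate 3.

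Among the secreted products, ADM (ENSG00000148926) encodes adrenomedullin, a peptide that widens vessels. Its level was 46.5, 22.1 and 49.1 CPM in control, 19.6, 26.3 and 40.7 CPM in DHA oil, and 30.7, 48.6, 51.9 and 37.7 CPM in fish oil. The lowest 3 values were spread over control and DHA oil, and the highest library exceeded the lowest 2.64-fold. STC2, a secreted glycoprotein that also responds to stress of the endoplasmic reticulum, varied from 60.9 to 102 CPM, with both ends in control.

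Genes that act at mitochondria were a pair of receptors for mitophagy (BNIP3 and BNIP3L) and FAM162A, a mitochondrial protein linked to cell death in hypoxia. BNIP3 was at 153, 108 and 177 CPM in control, 145, 125 and 167 CPM in DHA oil, and 103, 155, 172 and 161 CPM in fish oil, and its group means of 146, 145 and 148 CPM were nearly equal. BNIP3L did not share that order. It stood at 112, 114 and 124 CPM in control, 142, 127 and 138 CPM in DHA oil, and 98.0, 144, 137 and 167 CPM in fish oil, so that all DHA oil libraries lay above all controls. FAM162A ran from 92.2 CPM in fish oil replicate 1 to 213 CPM in fish oil replicate 4, a 2.305-fold span that was the widest of the 40 genes within that group.

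The genes that sense oxygen or act in feedback at chromatin differed in their extremes. EGLN3 (ENSG00000129521), a HIF prolyl hydroxylase that HIF itself induces, was at 154, 109 and 180 CPM in control, 113, 87.2 and 147 CPM in DHA oil, and 131, 214, 187 and 161 CPM in fish oil. Only fish oil replicate 1 fell below the highest DHA oil library. EGLN1, the main hydroxylase that marks HIF for breakdown at normal oxygen, varied less, from 68.5 CPM in fish oil replicate 1 to 104 CPM in fish oil replicate 2, and its means were 85.0 ± 13.8 (SD, n = 3), 90.5 ± 11.1 (SD, n = 3) and 93.4 ± 16.9 CPM (SD, n = 4) in control, DHA oil and fish oil. The histone demethylase KDM3A ran from 96.2 CPM in control replicate 2 to 148 CPM in control replicate 3. ANKRD37, a small ankyrin repeat protein induced by HIF, had the widest span of the 40 genes, 2.94-fold from 6.3 CPM in DHA oil replicate 2 to 18.4 CPM in fish oil replicate 3, and its level was low in counts throughout.

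P4HA1 and P4HA2, the catalytic subunits of collagen prolyl 4-hydroxylase, and ERO1A, which drives disulphide bond formation, were all highest in a fish oil library. P4HA1 ranged from 146 CPM in fish oil replicate 1 to 300.3 CPM in fish oil replicate 4. For P4HA2 the ends were 127 CPM in DHA oil replicate 2 and 237 CPM in fish oil replicate 2. ERO1A peaked at 151 CPM in fish oil replicate 2, and the other 9 libraries lay between 76.5 and 110 CPM.

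NDRG1 (ENSG00000104419), a stress-induced gene with growth-restraining activity, gave the largest spread within groups by biological coefficient of variation (27.1%). Its level was 470, 348 and 813 CPM in control, 331, 283 and 550 CPM in DHA oil, and 377, 722, 681 and 437 CPM in fish oil. The control and fish oil groups covered nearly the same range, and the DHA oil libraries ran from below that range to its middle. DDIT4, an inhibitor of the growth kinase complex mTORC1, was 97.8, 36.9 and 84.3 CPM in control, 50.2, 48.5 and 67.3 CPM in DHA oil, and 66.6, 67.1, 77.0 and 69.9 CPM in fish oil. Both ends of its range were controls, whereas the fish oil libraries agreed to within 1.16-fold. MXI1, an antagonist of MYC, was steadier, at 45.2, 33.8 and 40.4 CPM in control, 38.8, 36.3 and 40.6 CPM in DHA oil, and 43.4, 52.8, 47.3 and 43.8 CPM in fish oil.

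A group of kinases sets how glucose carbon is used. PFKFB3 and PFKFB4 make fructose 2,6-bisphosphate, an activator of phosphofructokinase, and PDK1 holds pyruvate back from the mitochondrial pyruvate dehydrogenase. PFKFB3 spanned 62.2 to 144 CPM, with control replicates 2 and 3 at the ends. PFKFB4 spanned 50.5 CPM in DHA oil replicate 2 to 110 CPM in fish oil replicate 3. PDK1 ran from 69.0 to 115 CPM, both in fish oil.

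The glucose transporters followed the hypoxia genes. SLC2A1 (GLUT1, ENSG00000117394), the broadly expressed transporter, was at 276, 242 and 457 CPM in control, 238, 194 and 293 CPM in DHA oil, and 290, 374, 360 and 347 CPM in fish oil. SLC2A3 (GLUT3, ENSG00000059804), a transporter of high affinity, was at 95.4, 75.9 and 133 CPM in control, 68.5, 64.5 and 79.5 CPM in DHA oil, and 90.0, 134, 103 and 78.9 CPM in fish oil. In both genes DHA oil held the lowest group mean and overlapped both other groups.

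Hexokinases trap glucose as its phosphate. HK2, the inducible form, was at 118, 87.2 and 179 CPM in control, 99.8, 78.6 and 121 CPM in DHA oil, and 119, 170, 167 and 92.4 CPM in fish oil. HK1 (ENSG00000156515), the form that most tissues express constantly, spanned only 1.38-fold, with 111, 123 and 125 CPM in control, 90.9, 101 and 105 CPM in DHA oil, and 116, 106, 107 and 91.2 CPM in fish oil. All 3 controls lay above all DHA oil libraries for HK1. The 3 phosphofructokinase genes, whose product commits sugar to glycolysis, did not share an order. PFKP, the platelet form, ran from 109 to 174 CPM and PFKL, the liver form, from 228 to 393 CPM. PFKM, the muscle form, was at 106, 79.5 and 96.9 CPM in control, 82.9, 81.4 and 71.3 CPM in DHA oil, and 86.6, 84.4, 85.7 and 86.4 CPM in fish oil.

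GPI, TPI1 and the aldolases complete the upper part of the pathway. GPI ranged from 359 to 550 CPM, ALDOC from 78.9 to 125 CPM and TPI1 from 993 to 1326 CPM. ALDOA had only 36 to 85 counts per library (4.7 to 10.2 CPM). How reads shared with overlapping or near-identical genes were counted is not given in the sources used here, so the level of ALDOA is uncertain. Those of GAPDH, PGK1, PGAM1, ENO1, TPI1, LDHA and LDHB, which have processed pseudogenes, are uncertain as well.

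In the lower part, GAPDH was at 5187, 6379 and 5455 CPM in control, 4731, 4949 and 5645 CPM in DHA oil, and 4898, 4413, 4508 and 5845 CPM in fish oil. Control replicate 2, a low tumour for the hypoxia genes, held its highest value. PGK1, the first ATP-forming enzyme of glycolysis, went from 516 CPM in fish oil replicate 1 to 1045 CPM in fish oil replicate 4, a 2.03-fold span. PGAM1 ran from 46.0 to 77.2 CPM, ENO1 from 3247 to 4750 CPM and PKM, which makes pyruvate, from 1724 to 2249 CPM. PKM had the smallest span of the 40 genes, 1.304-fold. ENO2, the neuronal enolase, was an exception in fish oil replicate 4, which at 244 CPM was its lowest library of that group, while its highest value of 400 CPM was in fish oil replicate 3.

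LDHA (ENSG00000134333), which turns pyruvate into lactate, stood at 1427, 1412 and 1675 CPM in control, 1412, 1346 and 1573 CPM in DHA oil, and 1183, 1532, 1619 and 2053 CPM in fish oil. Both ends were fish oil libraries. LDHB (ENSG00000111716), the form that favours the opposite direction, was at 374, 398 and 368 CPM in control, 340.0, 398 and 313 CPM in DHA oil, and 409, 379, 350 and 503 CPM in fish oil. SLC16A3 (MCT4, ENSG00000141526), the exporter of lactate from glycolytic cells, nearly kept the order of CA9, from 82.3 CPM in DHA oil replicate 2 to 160 CPM in control replicate 3.

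**Figure D2:**
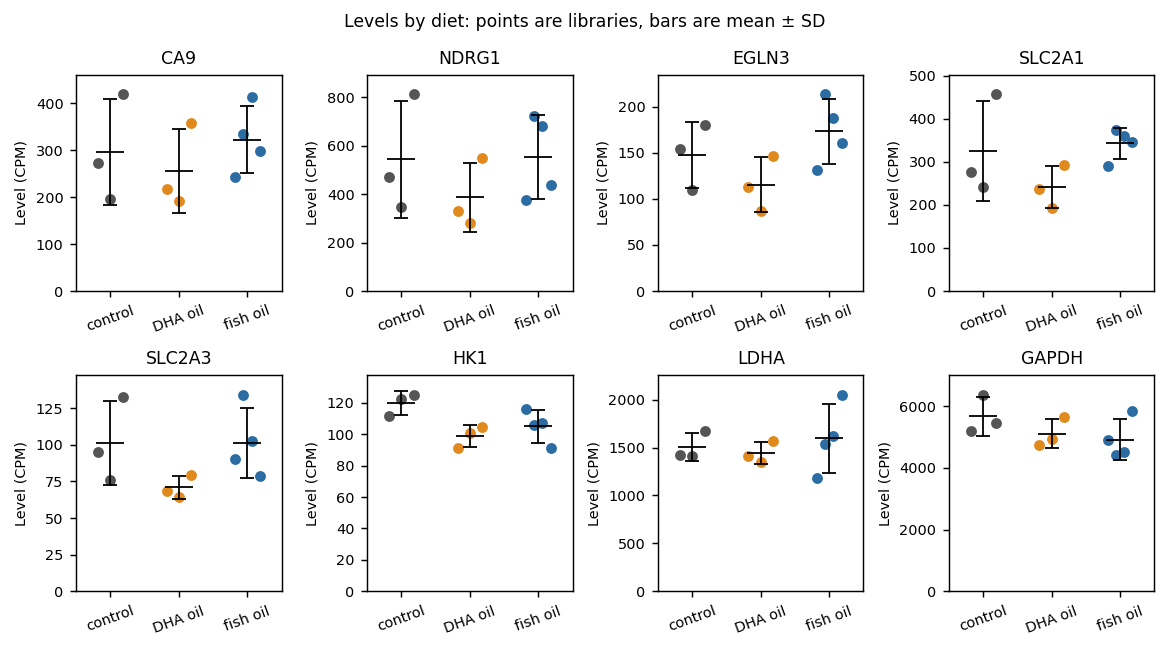
Points are CPM in single libraries by diet (n = 3 in control and in DHA oil, 4 in fish oil), and bars give mean ± SD on axes that start at 0. Groups overlap in CA9, NDRG1, EGLN3, SLC2A1, SLC2A3, LDHA and GAPDH, and in HK1 the 3 controls lie above the 3 DHA oil libraries.

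In each diet the most divergent pair of libraries differed over most of the set. That pair was chosen on these same genes, which raises its count against that of all genes. Since the genes moved together, the counts are not of separate observations. Control replicate 3 exceeded control replicate 2 in 36 of the 40 genes, including 20 of 20 hypoxia genes, with a median difference of 0.49 on the log2 scale over the 40. Among all genes tested 49.6% were higher in control replicate 3. DHA oil replicate 3 exceeded DHA oil replicate 2 in 38 of 40 genes (median 0.35 on the log2 scale) against 50.6% of all genes. In the fish oil group replicate 3 exceeded replicate 1 in 35 of 40 genes (median 0.41 on the log2 scale) against 50.7% of all genes. Hypoxia and glycolysis genes had medians of 0.67 and 0.28 in the control pair, 0.44 and 0.30 in the DHA oil pair and 0.52 and 0.19 in the fish oil pair, on the log2 scale. Not every other pair kept that order. From replicate 1 to replicate 3 the medians were 0.19 and 0.26 on the log2 scale in control and 0.11 and 0.27 in DHA oil. Fish oil replicate 2 also exceeded replicate 1 in 32 of 40 genes (median 0.26 on the log2 scale) against 50.9% of all genes. Replicate 4 exceeded replicate 1 in 26 (0.21) against 51.1%. Fish oil pairs without replicate 1 were closer, with 19 of 40 genes higher in replicate 4 than in replicate 2 (median -0.11 on the log2 scale). There were 25 higher in replicate 3 than in replicate 2 (0.06) and 15 higher in replicate 4 than in replicate 3 (-0.17).

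For 12 of the 40 genes the highest level was that of control replicate 3 (30% against 7.99% of all genes tested), among them CA9, NDRG1, SLC2A1, HK2 and SLC16A3. Fish oil replicate 4 also led in 12 (30%), but it did so for 24.6% of all genes. Its 12 were BNIP3L, FAM162A, P4HA1, PDK1, ALDOC, TPI1, PGK1, PGAM1, ENO1, PKM, LDHA and LDHB, 8 of them from the glycolysis set. The lowest value fell to DHA oil replicate 2 in 11 genes (27.5% against 6.77% of all genes), to fish oil replicate 1 in 11 (27.5% against 13.2%) and to control replicate 2 in 8 (20% against 8.74%).

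Spread within diets was larger than usual for genes of like abundance. Dispersion, the estimate of variation between libraries of one diet beyond counting error, lay above the trend over abundance in 18 of 20 hypoxia genes and 12 of 20 glycolysis genes, against 34.5% of all genes tested. The exceptions among the hypoxia genes were KDM3A and MXI1. In the glycolysis set they were HK1, GPI, PFKM, TPI1, GAPDH, ENO1, PKM and LDHB. The median biological coefficient of variation was 18.7% for the hypoxia genes, 15.5% for the glycolysis genes and 15.8% for all genes tested.

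CA9, the first of the listed genes, served to describe how the others moved between tumours. This measure was chosen after the levels had been seen. Over the 10 libraries, Pearson's r with CA9 on the log2 CPM scale was above 0 for 37 of the other 39 genes and above 0.5 for 29 of them (74.4%), 17 of 19 hypoxia genes and 12 of 20 glycolysis genes. Among the 16012 genes compared, r exceeded 0.5 in 6.99%. Median r was 0.75 for the hypoxia genes, 0.57 for the glycolysis genes and -0.01 for all genes. The libraries of a diet share their feed, and all values in a library share its depth and scaling factor. With levels centred within each diet, 30 of 39 genes had r above 0.5, against 9.55% of all genes. Without the 2 libraries farthest from the median of CA9, control replicate 3 and DHA oil replicate 2, 25 did, against 9.09%.

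NDRG1 had the highest Pearson's r with CA9, with r = 0.95 and Spearman's rho = 0.94 (two-sided permutation p = 0.00017 and 0.00022 over 10 libraries), and r = 0.91 without the 2 farthest libraries. SLC16A3 had the highest rho, with r = 0.93 and rho = 0.95 (two-sided permutation p = 0.00018 and 0.00013), and r = 0.88 without those libraries. Without fish oil replicates 2 and 4, r was 0.97 for NDRG1 and 0.99 for SLC16A3. SLC2A1, PFKFB3, ADM, EGLN3, HK2 and PFKP had r between 0.84 and 0.89. Adjusted over all genes compared, none of these passed, with an adjusted permutation p of 0.548 for NDRG1 and for SLC16A3. No gene of the 16012 passed adjustment by r or by rho. At an unadjusted permutation p under 0.05 there were 20 of the 39 genes by r (51.3% against 4.93% of all genes) and 26 by rho (66.7% against 5.8%).

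Other glycolysis genes tracked CA9 less closely. LDHB (r = -0.28) and GAPDH (r = -0.19) were the 2 genes with r below 0. HK1 and PFKM both had r = 0.18, and r was -0.18 and -0.09 without the 2 farthest libraries. TPI1, PFKL and PKM had r from 0.32 to 0.34. In the hypoxia set BNIP3L (r = 0.32) and FAM162A (r = 0.50) had the lowest values. The transporters, the inducible hexokinase, PFKP, ENO2 and the lactate exporter thus moved with CA9 at r from 0.75 to 0.93. Without fish oil replicates 2 and 4, 32 of 39 genes had r above 0.5, against 13.8% of all genes, with r of 0.87 for PGK1, 0.77 for LDHA and 0.81 for PFKL, which had 0.66, 0.57 and 0.34 over all 10 libraries.

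**Figure D3:**
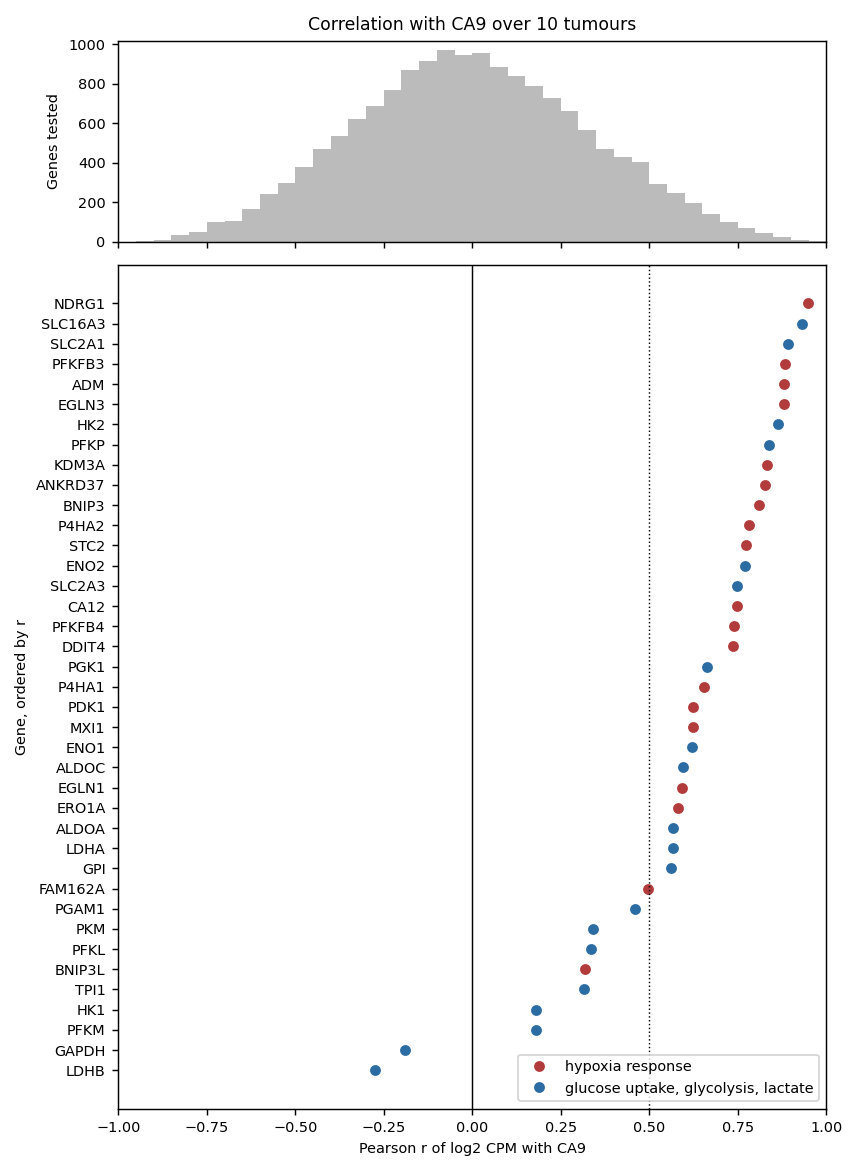
The upper panel is the histogram of Pearson's r with CA9 for the 16012 other genes tested, and the lower panel shows r for 39 hypoxia (red) and glycolysis (blue) genes over 10 libraries, with a dotted line at 0.5. The genes lie to the right of the centre of the histogram, 29 of 39 beyond 0.5, with LDHB and GAPDH below 0.

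The comparison of fish oil with DHA oil asks whether the 2 omega-3 arms differed from each other, and of the 4 comparisons it gave the largest median difference over the 40 genes. None passed edgeR's quasi-likelihood test (lowest adjusted p = 0.875), as was the case for all genes (0% called). The fold changes were above 0 in 37 of 40 genes and in 20 of 20 hypoxia genes, against 52.1% of all genes, and the median was 0.22 on the log2 scale against 0.01 for all genes. Since the genes moved together between tumours, their shared direction is not 40 separate observations. The genes below 0 were GPI, PFKL and GAPDH.

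At an unadjusted p under 0.05 were 4 of 40 genes (10%), all higher in fish oil, against 2.7% of all genes in that direction. EGLN3 was higher in fish oil by 0.59 ± 0.21 on the log2 scale (SE; 95% interval 0.15 to 1.03, adjusted p = 0.875 by edgeR). SLC2A3 was 1.43-fold higher, at 0.52 ± 0.20 on the log2 scale (0.10 to 0.94), and SLC2A1 was 1.42-fold higher, at 0.51 ± 0.20 (0.08 to 0.93). MXI1 had a smaller difference of 0.28 ± 0.13 on the log2 scale (0.00 to 0.56), and its groups did not overlap. Groups did not overlap in 3 of 40 genes (7.5% against 4.95% of all genes), the others being ANKRD37 and PFKM. By role, the 4 were 2 of 2 transporters, 1 of 4 genes of oxygen sensing and chromatin feedback, and 1 of 3 growth restraint genes. Every other role, of 2 to 9 genes, had 0. With a share of 2.7% over all genes, counts in such small sets cannot set the roles apart. No gene of the 40 was at an unadjusted p under 0.05 without DHA oil replicate 2, where 1.78% of all genes were in the higher direction. Without fish oil replicate 1 there were 13 (32.5%), all higher in fish oil, but the share of all genes in that direction also grew, to 5.04%. Leaving out fish oil replicate 2 gave 1 (2.5% against 2.03%) and leaving out fish oil replicate 4 gave 7 (17.5% against 2.46%). The count was 8 (20%) when DHA oil replicate 3 or control replicate 2 was dropped, against 2.03% and 2.58%. The median was 0.13 on the log2 scale with DHA oil replicate 2 dropped, and 0.16 without fish oil replicates 2 and 4, where 29 of 40 genes were above 0 and 2 were at an unadjusted p under 0.05 (5% against 1.83%). Log2 fold changes of EGLN3, SLC2A3, SLC2A1 and MXI1 were 0.47, 0.35, 0.46 and 0.22 without fish oil replicate 2. They were 0.62, 0.62, 0.50 and 0.32 without fish oil replicate 4.

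DHA oil against ordinary chow gave fold changes below 0 in 33 of 40 genes, against 49.2% of all genes, with a median of -0.16 on the log2 scale against 0.00. No gene passed edgeR's test (lowest adjusted p = 1.00; 0% of all genes called). At an unadjusted p under 0.05 there were 2 (5%), both lower with DHA oil, against 1.72% of all genes in that direction. SLC2A3 was 1.43-fold lower, with a log2 fold change of -0.52 ± 0.21 (SE; 95% interval -0.96 to -0.07), and 1 of its 3 DHA oil libraries lay above the lowest control. Without control replicate 3 its log2 fold change was -0.28. HK1 was 1.21-fold lower, at -0.28 ± 0.12 on the log2 scale (-0.54 to -0.01), in 3 of 3 libraries below every control. Groups did not overlap in HK1 and in BNIP3L, 2 of 40 genes (5%) against 10.6% of all genes. The growth restraint genes NDRG1, DDIT4 and MXI1 and the 3 flux kinases were all below 0, with medians of -0.40 and -0.25 on the log2 scale, and none was at an unadjusted p under 0.05. All genes were also below 0 among the transporters (median -0.47), secreted products (-0.32), carbonic anhydrases (-0.15) and lactate genes (-0.12). Of the collagen and disulphide genes 2 of 3 were above 0 (median 0.08), and the remaining roles had genes on both sides. Differences of MXI1 (-0.05) and PDK1 (-0.02) were close to 0. With most of the 40 genes below 0, signs in such small sets cannot set the roles apart.

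PFKM had the next smallest p, at -0.26 ± 0.13 on the log2 scale (-0.53 to 0.01), and control replicate 1 held its highest level. That library was also the highest, at 60.3 CPM, for ENSG00000101470, the gene with the smallest p of all when both oils were set against control. It stood at 5.49 and 13.1 CPM in the other controls and at most 1.89 CPM in the oil libraries. A relation between that gene and PFKM was not tested. Without control replicate 1 the log2 fold change of PFKM was -0.17, and the part of that library in the result was otherwise not tested. The shift of the whole set depended on single tumours. The median over the 40 genes was -0.03 on the log2 scale without control replicate 3, with 16 genes above 0, and -0.09 without DHA oil replicate 2. It was -0.20 without control replicate 2 and -0.25 without DHA oil replicate 3, with 3 genes above 0 in both cases. Without control replicate 2, 12 of the 40 genes (30%) were at an unadjusted p under 0.05, all lower with DHA oil, against 1.91% of all genes in that direction. Without DHA oil replicate 3 there were 6 (15% against 1.68%), and without control replicate 3, DHA oil replicate 1 or DHA oil replicate 2 there were 0.

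Fish oil against ordinary chow gave 0 of 40 genes at an adjusted or an unadjusted p under 0.05 in edgeR, against 0.00624% and 3.48% of all genes. Of the 20 hypoxia genes 19 were above 0, against 51.5% of all genes, but the differences were small, with a median of 0.13 on the log2 scale and a range from -0.06 to 0.39. The glycolysis genes centred on 0.01, with 12 above 0 and 8 below. The smallest p belonged to GPI, at -0.24 ± 0.14 on the log2 scale (SE; 95% interval -0.53 to 0.05), to MXI1, at 0.23 ± 0.13 (-0.05 to 0.51), and to HK1, at -0.19 ± 0.11 (-0.43 to 0.06). Without fish oil replicates 2 and 4 their log2 fold changes were -0.15, 0.19 and -0.10. That of GPI was -0.14 without control replicate 3, and that of MXI1 was 0.13 without control replicate 2. No gene had groups that did not overlap, against 3.74% of all genes. The median over the 40 genes was 0.08, and it was -0.09 without control replicate 2, and 0.22 without control replicate 3. Leaving out fish oil replicate 1 gave 0.15, leaving out replicate 2 gave 0.03, leaving out replicate 3 gave -0.00, and leaving out replicates 2 and 4 gave 0.01. With each library left out, 0 to 2 of the 40 genes were at an unadjusted p under 0.05. Both oil comparisons share the same 3 control libraries.

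With both oils together against control, HK1 was the 1 gene of 40 (2.5%) at an unadjusted p under 0.05, against 1.64% of all genes in the lower direction. Its log2 fold change was -0.23 ± 0.10 (SE; 95% interval -0.45 to -0.01). PFKM was at -0.20 ± 0.11 on the log2 scale (-0.43 to 0.03; -0.11 without control replicate 1, -0.31 without control replicate 2) and BNIP3L at 0.22 ± 0.14 (-0.07 to 0.51; 0.12 without fish oil replicates 2 and 4). None passed edgeR's test (lowest adjusted p = 1.00), while 0.131% of all genes did. The median over the 40 genes was -0.05 on the log2 scale, with 15 above 0 and 25 below (49.6% of all genes were below), and it was 0.10 without control replicate 3, with 30 above 0, and -0.16 without control replicate 2, with 4 above 0. Dropping DHA oil replicate 2 gave -0.02 and dropping replicate 3 of that group gave -0.08. Dropping fish oil replicate 1 gave -0.01, and dropping replicate 3, or replicates 2 and 4, of that group gave -0.07. With each library left out, 0 to 4 of the 40 genes were at an unadjusted p under 0.05.

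The 95% intervals give a range for each gene in turn, and they were not adjusted for the number of genes or comparisons. They lay within a 2-fold change either way for 38 of 40 genes in DHA oil against control (83% of all genes), for 36 in fish oil against DHA oil (83.6%), and for all 40 in fish oil against control (84.7%) and in both oils against control (88.7%). Across these comparisons the lowest bound was -1.17 on the log2 scale and the highest was 1.16. Widths differed between genes, as with -0.39 to 0.12 for PFKM and -0.60 to 0.66 for NDRG1 on the log2 scale in fish oil against control. Differences that lay within a gene's interval could not be resolved against the spread between tumours.

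**Figure D4:**
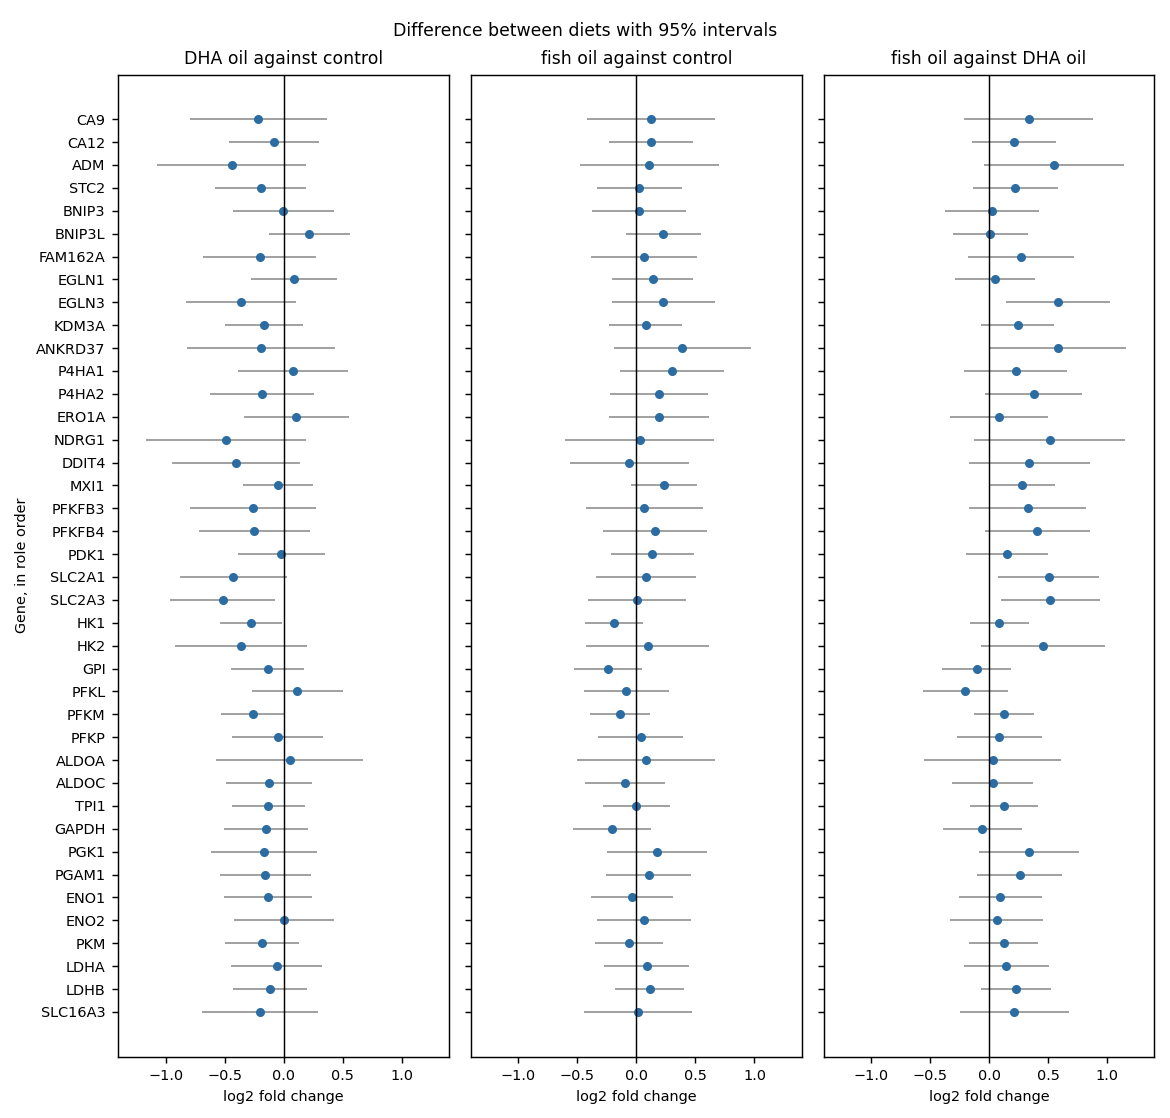
Points are log2 fold changes and lines their 95% intervals for the 40 genes in DHA oil against control, fish oil against control and fish oil against DHA oil. Most intervals cross 0 in each panel. Points lie mostly left of 0 in the first panel (33 of 40) and right of 0 in the third (37 of 40).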

How the data were processed

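RNA was profiled by single-end 75 bp sequencing of stranded poly(A) libraries, per the labels' protocols. The deposited values are unnormalised read counts for human genes, which the authors obtained with STAR, GRCh38 and HTSeq 0.9.0 according to the submitters' processing notes. The sources used here do not give the annotation release, the strand setting, or whether mouse reads were removed. Diets come from the treatment label and replicate numbers from the titles.

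Genes were filtered with filterByExpr (minimum count 10), scaled by TMM and tested in R 4.3.3 with edgeR 4.0.16 (quasi-likelihood F test, all 10 libraries, diet as the only factor), with Benjamini-Hochberg adjustment over the 16013 genes tested and a threshold of 0.05. The SE is the absolute log2 fold change divided by the square root of F. A prior count of 2 entered log2 CPM. Permutation p-values of correlations used 100000 resamples, adjusted over 16012 genes. Both steps were tested on simulated data.

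The members and lists were chosen with earlier results of these data known. Fold changes are printed for genes at an unadjusted p under 0.05 and, in any case, for the 3 smallest p of each comparison. None of the 168 symbols of the 10 other lists, which cover further pathways and cell type markers, could be matched, since the names table at hand holds mouse genes and matched 0 of the identifiers in the count table. Alternatives were RLE and upper quartile scaling, no and strict filters (1 CPM in all libraries), DESeq2 1.42.0, limma-voom 3.58.1, only the groups compared, a replicate block, and left-out libraries. No batch is labelled.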

Additional observations from a re-analysis of the deposited data

Results flagged for a closer look

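Fish oil is the group with 4 libraries, enough to ask whether 1 library lay far from the rest, and this was done for each of the 40 genes. Chance marks about 1 in 20 such groups. The 2 genes marked make 5% of the 40, against 5.85% of all 16013 genes examined the same way. Both cases were fish oil replicate 4, which was the library that stood out in 49.9% of the marked genes among all. Its STC2 level of 74.6 CPM was below the 92.1 to 95.5 CPM of replicates 1 to 3, a distance of 0.836 of the whole range. Its PKM level of 2249 CPM was above their 1907 to 1949 CPM, a distance of 0.876 of the range. No gene had all DHA oil libraries on one side of the control mean and all fish oil libraries on the other.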

How the results depend on the processing

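No member was called in any of the 4 comparisons under any of the 19 alternatives, DESeq2 and limma-voom among them, and 0 of 247 recomputed fold changes of the genes named with tests changed sign or were called. These genes were named for a small p, which makes a change of sign less likely. Some alternatives dropped a library of a diet outside the comparison, which hardly moved the fold change. For both oils, keeping only the groups compared repeated the main fit. Counts over all genes were less stable. For DHA oil against control, with 0 genes called, they were 57 with no filter, 11 with DESeq2, 3 with limma-voom and 0 to 5 with each library left out. For fish oil against control, with 1 called, they were 56, 20 and 0 in that order, 0 with the strict filter, 7 with only the groups compared, 0 without fish oil replicates 2 and 4, and 0 to 22 with each library left out. Fish oil against DHA oil, with 0 called, gave 14 with no filter, 1 with DESeq2 and 0 to 1 with each library left out. Both oils against control, with 21 called, gave 76 with no filter, 0 with the strict filter, 1 with limma-voom, 0 without fish oil replicates 2 and 4, and 3 to 35 with each library left out. The cause was not tested.

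Replicate numbers are shared between diets, but libraries with the same number did not deviate together (r of -0.17 to 0.18 over 9 pairs, 1 above 0.1), and 1 of 10 libraries correlated best with its own number. Only fish oil has a replicate 4, so in the replicate block that library no longer informs the fold changes. With the block, 1 gene was called for DHA oil against control, 0 for fish oil against control and 12 for both oils against control. Between the oils 12 of the 40 genes in place of 4 had an unadjusted p under 0.05 (30%, all higher in fish oil, against 2.22% of all genes in that direction). Leaving fish oil replicate 4 out without a block gave 7 (17.5% against 2.46%). With no filter that count was 10 (25% against 2.46%), and with limma-voom 9 (22.5% against 2.55%). The count of genes with r above 0.5 to CA9 was 26 to 32 with each library left out and 29 with RLE scaling. Totals of 6187116 to 10035702 counts, and 3 or 4 tumours per diet, limit what can be resolved.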
